A study of Mus musculus with 13 samples.

Results

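The transcripts followed here belong to 10 genes that shape the mitochondrial network or maintain and expand it, out of 42416 gene identifiers counted in each library. The rule lists the genes by name and uses no measured value; each symbol was matched to its Ensembl identifier, and all 10 were found. Opa1, Mfn1 and Mfn2 act in fusion, Dnm1l, Fis1 and Mff in fission, and Tfam, Nrf1, Gabpa and Polg in mitochondrial DNA upkeep and biogenesis.

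Bulk RNA was sequenced from snap-frozen interscapular brown adipose tissue (iBAT) of mice fed a high-fat diet (HFD) and housed at room temperature. The 8 iFAXLKO libraries came from mice with loxP-flanked Axl and a Cre recombinase, and the 5 WT libraries from mice with the same floxed Axl and no Cre. Both groups received tamoxifen every 3 weeks, per the methods of the study by gavage on consecutive days each time, so that floxed Axl, tamoxifen and diet were shared and Cre was the difference. Per the methods of the study the Cre is Adipoq-CreERT2, a transgene on a bacterial artificial chromosome that is active in adipocytes, and floxed Axl was homozygous in both groups; other cells of the depot are not targeted. The study describes these mice as female littermates that were first given tamoxifen as young adults; the labels give neither age nor sex, and they list the libraries as separate replicates without naming the animal behind each, so p-values measure the spread between these samples. The comparison asks how Cre activity against Axl in adipocytes, on HFD, is reflected in the transcripts of the mitochondrial dynamics and biogenesis machinery.

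Mitochondria in a cell form a network that is joined by fusion and divided by fission. The mitofusins Mfn1 and Mfn2 tether and fuse the outer membranes, Opa1 fuses the inner membranes and holds the cristae in shape, and the cytosolic GTPase Dnm1l (Drp1) is recruited by outer membrane receptors such as Mff and Fis1 to constrict and cut the organelle. Nuclear respiratory factor 1 (Nrf1) and GABP, whose DNA-binding subunit is Gabpa, switch on nuclear genes for respiration, among them Tfam. Tfam packages mitochondrial DNA and acts in its transcription, while Polg copies it. Brown adipocytes are packed with mitochondria, and their network is known to fragment when noradrenaline turns on heat production.

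Total counts lay between 22.44 and 32.6 M per library (M as in Mb). Where a gene had 0 counts, up to 3 counts were allowed, which is between 0.088 and 0.13 counts per M counts of the library (CPM) in these libraries, and such floors cover counting error only. The members stood far above this, with 250 counts for the lowest value (Nrf1) and 13296 for the highest (Mfn2). The tissue label was borne out by Ucp1, the uncoupling protein of brown fat, at 4030 to 7894 CPM in the 13 libraries. Transcripts of skeletal muscle, from a list of 14 markers, summed to between 63.5 and 5980 CPM in the iFAXLKO libraries and between 101 and 4110 CPM in the WT libraries, a 94.2-fold span over which the groups were mixed (two-sided exact permutation p = 0.584). Fibroblast markers were higher in iFAXLKO, at 455 to 991 against 328 to 575 summed CPM for 7 markers (difference of 0.60 on the log2 scale, exact permutation p = 0.0148, two-sided, not adjusted for the 8 marker lists compared). Macrophage markers differed by 0.40 (exact permutation p = 0.0287), at 90.7 to 190 against 80.6 to 117 summed CPM for 6 markers. Brown adipocyte markers summed to 7660 to 11600 CPM in iFAXLKO and 9490 to 14200 CPM in WT (exact permutation p = 0.232), and the lists of white adipocytes, endothelium, erythroid and Schwann cells had exact permutation p-values from 0.0979 to 0.472. None of the single fibroblast or macrophage markers passed the adjusted limit in edgeR, and their part in the values of the 10 genes was not tested except by the fibroblast covariate given with the alternatives.

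No lower level of Axl, the gene that Cre targets, was seen in iFAXLKO. WT libraries had a mean of 27.8 ± 3.83 CPM (SD, n = 5) and those labelled iFAXLKO one of 33.1 ± 6.16 CPM (SD, n = 8), which is a log2 fold change of 0.25 (SE 0.13, edgeR adjusted p = 0.699). The counts cover the whole gene and every cell type of the depot. Each direction given here therefore rests on the labels of the libraries, and the names iFAXLKO and WT refer to those labels.

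The promoters of the members were searched for the cores of the sites bound by their own regulators, because Nrf1 and Gabpa are themselves among the 10 genes. RefSeq promoters (GRCm38.p6), from 250 bases before to 50 bases after each annotated start, were searched on both strands for CCGGAAG (reverse CTTCCGG), the core read by GABP and other ETS factors, and for GCATGCG (reverse CGCATGC), the core read by NRF1. These letters overlap in the palindrome CGCATGCG, which counts on both strands. The ETS core stood in at least 1 promoter of 6 of the 10 genes, against 9.93% of 27025 genes with a promoter in the table, and the NRF1 core in 2 of the 10, against 4.01%. Of the 10 genes, 7 held at least 1 of these cores, for which no share over all genes was counted. The shares for the single cores cover all genes with a promoter, whether or not they are expressed in iBAT. A match is a description of the letters and not a measured site. The 30 bases around each core are given for these 7 genes, read 5′ to 3′ in the direction of the gene, with the core in capitals and the position of its first base counted from the start site.
Mfn1, chr3:32529427-32529456, plus strand, first base at -44: gatccgaagcgCCGGAAGtagccgccccta
Fis1, chr5:136953246-136953275, plus strand, first base at -18: ggaggcaccacCCGGAAGttcaggcttccc
Polg, chr7:79466293-79466322, minus strand, first base at -38: gaggacctcacCCGGAAGtccctctgcacc
Tfam, chr10:71238073-71238102, minus strand, first base at -47: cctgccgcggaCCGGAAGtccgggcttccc
Dnm1l, chr16:16358545-16358574, minus strand, first base at 13: gctgtcgcttcCTTCCGGccgctgaggacg
Gabpa, chr16:84835020-84835049, plus strand, first base at -93: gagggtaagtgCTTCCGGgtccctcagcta
Gabpa, chr16:84835105-84835134, plus strand, first base at -8: actgcactgtaCGCATGCGtattctggcct
Opa1, chr16:29579265-29579294, plus strand, first base at -58: gtggctccccgCGCATGCGcatgtcatccg
In Mfn1, Fis1, Polg and Tfam the ETS core lay within 50 bases before the start in the direction of the gene. In Gabpa and Dnm1l it was read on the opposite strand, farther before the start in Gabpa and after it in Dnm1l. A further start of Fis1 had the core 20 bases after it. Another RefSeq start of Dnm1l, at -72 from the GENCODE start, had no core in its window. Gabpa carried both cores, so its own promoter held the letters read by its product and by NRF1. The RefSeq starts used for Polg, Tfam, Gabpa and Dnm1l lay 89, 236, 199 and 384 bases inside the gene as GENCODE M21 draws it, so these windows are promoter or transcript depending on the annotation. No core was found in the windows of Mfn2, Mff and Nrf1, which says only that these letters are not there.

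None of the 10 genes passed the test for a difference between the groups. In edgeR 0 of 10 had an adjusted p under 0.05, where 0.127% of all 13360 genes tested did, and 0 of 10 had an unadjusted p under 0.05, where 7.38% of all genes did. DESeq2 and limma-voom (with sample quality weights) likewise called 0 of 10, with 0 at an unadjusted p under 0.05 in each. The CPM ranges of the groups overlapped for 10 of 10 members, while over all genes 0.434% had ranges that did not overlap. The log2 fold change was negative for 6 members and positive for 4, with a median of -0.08 beside -0.01 over all genes tested, of which 53.6% were negative. The 95% intervals bound the difference: over all 10 members they ran from 0.787-fold (Gabpa) to 1.26-fold (Nrf1) of WT. Fewer cells of a type and less RNA per cell cannot be told apart in such bulk samples.

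**Figure D1:**
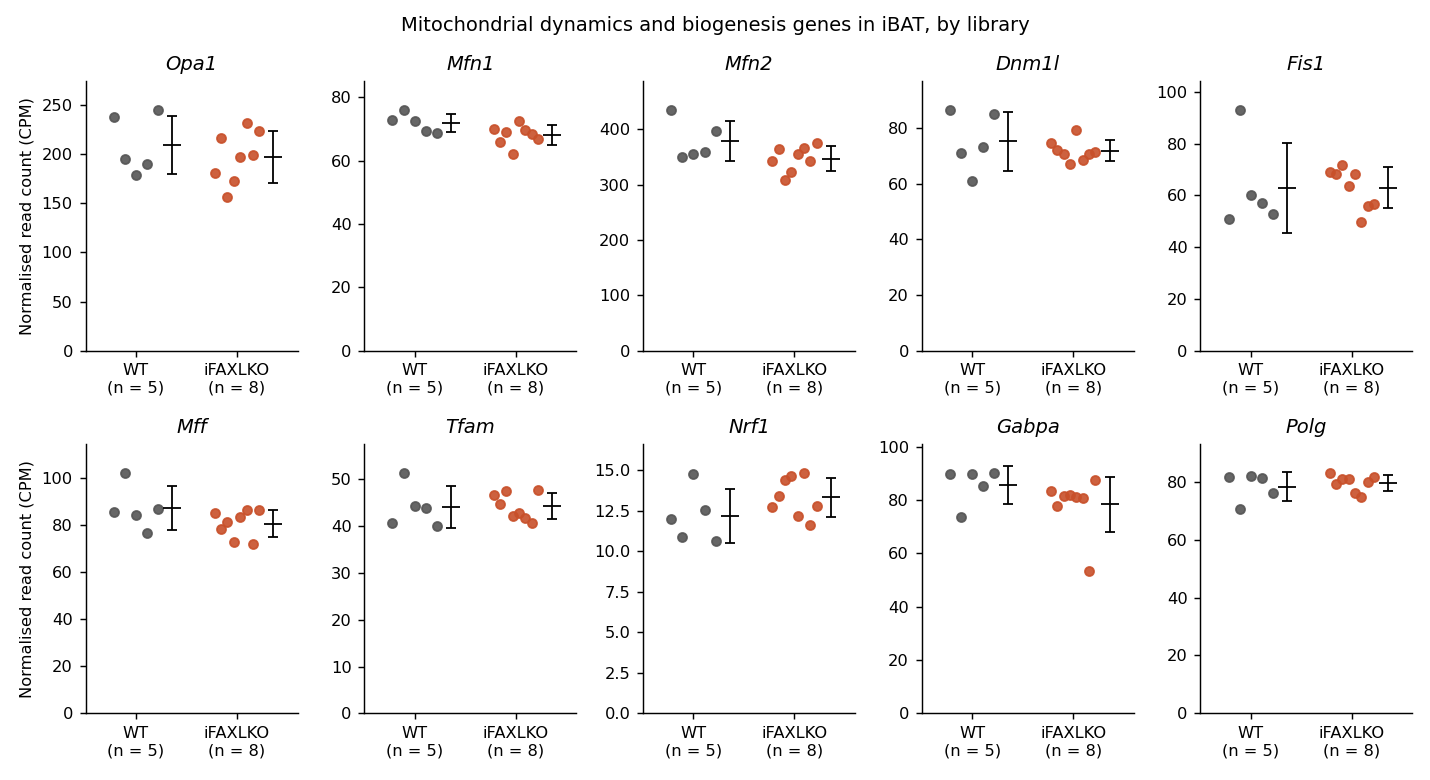
Normalised read counts (CPM, TMM-scaled, linear axes from 0) of the 10 genes in 5 WT and 8 iFAXLKO libraries, where each point is 1 library, the horizontal tick is the group mean and the bar is the SD. The groups overlap in every panel; WT replicate 2 stands alone at the top for Fis1 (93.1 CPM) and iFAXLKO replicate 7 at the bottom for Gabpa (53.4 CPM).

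Opa1 (chr16:29579334-29654884, plus strand, GRCm38) encodes the dynamin-like GTPase of the inner membrane. Its levels in the WT libraries, in replicate order, were 237, 195, 179, 190 and 245 CPM, and those in iFAXLKO ran from 157 through a median of 198 to 231 CPM. WT replicates 1 and 5 were the highest of all libraries and iFAXLKO replicate 3 the lowest, but 6 of 8 iFAXLKO libraries fell within the WT range. The means were 197 ± 26.0 CPM (SD, n = 8) and 209 ± 29.8 CPM (SD, n = 5). The log2 fold change was -0.09 (SE 0.11, 95% interval -0.32 to 0.14, edgeR adjusted p = 0.918). Opa1 lies 6.433 Mb from the Adipoq gene itself, and Dnm1l 6.834 Mb from it on the same chromosome. The Cre transgene was introduced by pronuclear injection, and its place in the genome is not given in the sources used here.

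Mfn2 (chr4:147873599-147904704, minus strand) was the most abundant member. The WT values were 435, 350, 356, 359 and 398 CPM, and the iFAXLKO values had a minimum of 309, a median of 349 and a maximum of 376 CPM. All 8 iFAXLKO libraries lay below the WT mean, 4 of 8 within the WT range. That mean was 380 ± 36.3 CPM (SD, n = 5), raised by replicates 1 and 5, and the iFAXLKO mean was 347 ± 22.8 CPM (SD, n = 8). This gave a log2 fold change of -0.13 (SE 0.08, 95% interval -0.29 to 0.04, edgeR adjusted p = 0.751, the lowest of the members), which became -0.07 once WT replicate 1 was left out.

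Mfn1 (chr3:32529465-32579239, plus strand), the other mitofusin, varied little. WT libraries held 72.9, 76.1, 72.5, 69.5 and 68.8 CPM, and iFAXLKO libraries from 62.1 to 72.4 CPM around a median of 68.8. Only 1 of 8 iFAXLKO libraries exceeded the WT mean of 72.0 ± 2.91 CPM (SD, n = 5), against 68.1 ± 3.10 CPM (SD, n = 8). In edgeR its log2 fold change was -0.08 (SE 0.06, 95% interval -0.20 to 0.04, adjusted p = 0.812). A two-sided exact permutation test on the difference of mean log2 CPM gave p = 0.0451, the only one of the 10 members below 0.05 in that test and unadjusted for the 10 tests, and p = 0.508 when CPM were taken without the TMM factors. The call on Mfn1 in that test thus changed with the scaling.

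The labels give each library a number but no ranges. The numbers were divided here at a gap into a lower and an upper range, and the upper range itself holds a gap as wide. Among the fusion genes the difference was not of 1 size in these 2 ranges of library numbers. In the lower range (4 iFAXLKO and 2 WT libraries) the difference of mean log2 CPM was -0.26 for Opa1, -0.16 for Mfn1 and -0.22 for Mfn2. In the upper range (4 iFAXLKO and 3 WT libraries) the values were 0.07, -0.02 and -0.04. The labels do not say what the numbers stand for, and the difference between the ranges was not tested.

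Dnm1l (chr16:16312230-16358959, minus strand), the fission GTPase, was spread more widely in WT than in iFAXLKO. WT libraries had 86.5, 71.1, 60.9, 73.1 and 85.0 CPM, and the iFAXLKO libraries ran from 67.0 through 71.0 to 79.3 CPM. Both the highest and the lowest library were WT, so that 8 of 8 iFAXLKO libraries fell inside the WT range. Its log2 fold change was -0.07 (SE 0.08, 95% interval -0.24 to 0.11, edgeR adjusted p = 0.911). A processed pseudogene, Gm13719, matches 1347 bases of its longest transcript at 91.24% identity and is not among the identifiers of the count files, so reads shared with it are uncertain.

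Mff (chr1:82724890-82752394, plus strand), an outer membrane receptor for Dnm1l, had WT values of 85.6, 102, 84.5, 76.6 and 87.1 CPM. In iFAXLKO it ran from 72.1 through a median of 82.5 to 86.6 CPM. None of the 8 iFAXLKO libraries reached the WT mean of 87.2 ± 9.41 CPM (SD, n = 5), which WT replicate 2 lifted, and 6 of 8 lay within the WT range. With a log2 fold change of -0.11 (SE 0.08, 95% interval -0.28 to 0.05, edgeR adjusted p = 0.809), the difference shrank to -0.05 when WT replicate 2 was left out.

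Fis1 (chr5:136953275-136966234, plus strand), a small tail-anchored protein of the outer membrane, was the least even member. The WT libraries held 51.1, 93.1, 60.3, 57.0 and 52.9 CPM, and the iFAXLKO libraries 49.9 to 71.7 CPM with a median of 66.0. One library, WT replicate 2, stood above all others, and the next highest was iFAXLKO replicate 3. The group means were 63.0 ± 7.85 CPM (SD, n = 8) in iFAXLKO and 62.9 ± 17.2 CPM (SD, n = 5) in WT, with a log2 fold change of 0.00 (SE 0.14, 95% interval -0.29 to 0.29, edgeR adjusted p = 0.997). Without WT replicate 2 the WT mean was 55.3 ± 4.14 CPM (SD, n = 4) and the log2 fold change 0.19 (edgeR adjusted p = 0.459).

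Tfam (chr10:71225464-71238280, minus strand) coats mitochondrial DNA and acts in its transcription. WT values were 40.7, 51.4, 44.3, 43.9 and 40.0 CPM, and iFAXLKO values ran from 40.5 through 43.7 to 47.8 CPM. WT replicate 2 was again the highest library, and 8 of 8 iFAXLKO libraries lay within the WT range. With means of 44.2 ± 2.81 CPM (SD, n = 8) and 44.1 ± 4.50 CPM (SD, n = 5), the log2 fold change was 0.00 (SE 0.07, 95% interval -0.15 to 0.16, edgeR adjusted p = 0.995).

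Polg (chr7:79446231-79466362, minus strand), the catalytic subunit of the mitochondrial DNA polymerase, was the steadiest member. The 5 WT libraries had 81.7, 70.5, 81.8, 81.4 and 76.1 CPM, and the iFAXLKO libraries spanned 74.9 to 83.2 CPM with a median of 80.6. Its highest value over 13 libraries was 1.18 times its lowest, which was WT replicate 2. For the group difference, the log2 fold change was 0.02 (SE 0.06, 95% interval -0.10 to 0.15, edgeR adjusted p = 0.97). Polg shares 921 exon bases with Fanci on the opposite strand, which had 2 to 9 counts per library.

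Nrf1 (chr6:30047988-30153458, plus strand) was the least abundant member and the one with the most positive difference. In WT the values were 12.0, 10.9, 14.8, 12.6 and 10.7 CPM, and in iFAXLKO they ran from 11.6 through 13.1 to 14.9 CPM. Of the iFAXLKO libraries, 6 of 8 lay above the WT mean and 7 of 8 inside the WT range. The means were 13.3 ± 1.21 CPM (SD, n = 8) and 12.2 ± 1.65 CPM (SD, n = 5), and the log2 fold change was 0.13 (SE 0.09, 95% interval -0.07 to 0.33, edgeR adjusted p = 0.821). It was 0.27 in the lower range of library numbers and 0.03 in the upper, as differences of mean log2 CPM. In edgeR without 1 library it ran from 0.09 (without WT replicate 5) to 0.22 (without WT replicate 3).

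Gabpa (chr16:84834925-84863779, plus strand) encodes the ETS-type subunit of GABP. The WT libraries had 89.9, 73.7, 89.7, 85.1 and 90.3 CPM, and those of iFAXLKO a minimum of 53.4, a median of 81.3 and a maximum of 87.5 CPM. iFAXLKO replicate 7 was far below every other library, whose lowest value was 73.7 CPM. For Gabpa the log2 fold change was -0.13 (SE 0.10, 95% interval -0.35 to 0.09, edgeR adjusted p = 0.84), and -0.07 without iFAXLKO replicate 7. Gabpa shares 397 exon bases, 6.98% of its exons, with Atp5j, an abundant gene on the opposite strand at 2765 to 4786 counts per library. Since the strand setting of the counting is not given in the sources used here, the counts of Gabpa are uncertain to the extent that such reads were assigned to it.

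The share of all counts that came from mitochondrially encoded genes, the transcripts that Tfam and the mitochondrial polymerase serve, lay between 18.3% and 21.3%. It was 20.1 ± 0.996% (SD, n = 8) in iFAXLKO and 20.4 ± 0.44% (SD, n = 5) in WT, which did not differ beyond the spread (exact permutation p = 0.534, two-sided). These transcripts carry short tails and depend on how the RNA was selected, which the sources describe in different ways, so the share is comparable only among these libraries.

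Levels of different genes were compared as CPM per kb of merged exons in the WT libraries. Mfn2 came first, at 73.1 ± 6.99 CPM per kb (SD, n = 5), ahead of Fis1 at 36.7 ± 10.1 and Opa1 at 26.6 ± 3.78, whose SD ranges overlapped. Gabpa (15.1 ± 1.24) and Dnm1l (14.5 ± 2.04) followed and were not distinct from each other. Next came Mfn1 at 11.8 ± 0.476, then Tfam (9.93 ± 1.02) and Mff (8.94 ± 0.965), again with overlapping ranges, then Polg at 7.29 ± 0.466 and last Nrf1 at 1.18 ± 0.161. With the longest annotated transcript as the length, Mff moved from rank 8 to rank 4, at 22.3 ± 2.40 CPM per kb (SD, n = 5), and the SD ranges of Mfn2 and Fis1 overlapped. Mfn2 thus exceeded its paralogue Mfn1 on both lengths, at 87.5 ± 8.37 against 15.8 ± 0.637 CPM per kb of the longest transcript, and the place of Mff rests on the length chosen.

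**Figure D2:**
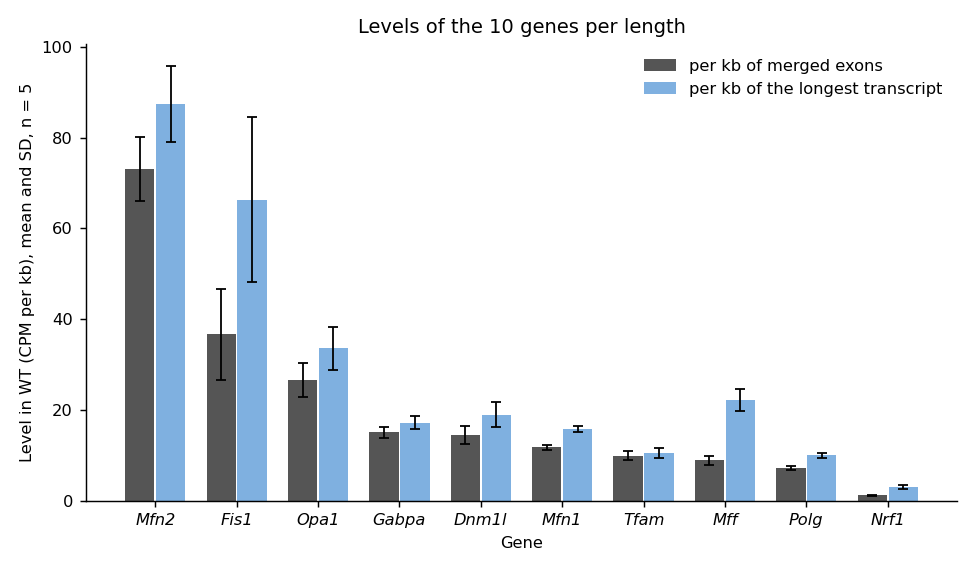
Levels of the 10 genes in WT iBAT in CPM per kb (linear axis from 0), as mean (bar) and SD (line) over 5 libraries, per kb of merged exons in dark bars and of the longest annotated transcript in light bars. Mfn2 is highest (73.1 and 87.5) and Nrf1 lowest (1.18 and 3.01) on both lengths, while Mff rises from 8.94 to 22.3.

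A pair of members, Opa1 and Mfn2, rose and fell together from library to library. Of 9 relations tested on log2 CPM with the group means removed, theirs was the 1 past the limit. They had a Pearson r of 0.91 over 13 libraries (permutation p = 9e-05, adjusted p = 0.00081 over 9 relations) and a Spearman rho of 0.87 (permutation p = 0.00046, adjusted p = 0.00414). The libraries highest in both were WT replicates 1 and 5, and the lowest in both was iFAXLKO replicate 3. With the pair of libraries most distant from the median Mfn2 level left out (WT replicate 1 and iFAXLKO replicate 3), r was 0.92, and it was 0.93 within the lower and 0.93 within the upper library numbers. Leaving out 1 library gave between 0.88 and 0.95, and removing the skeletal muscle score gave 0.92. Of the 13359 other genes tested, 32 (0.24%, Mfn2 included) followed Opa1 with an r at least this high, and the median r with Opa1 was -0.01.

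The 100 bases before the start sites of this pair are given because the genes moved together, in the direction of the gene, with the NRF1 core of Opa1 in capitals. The start used for Mfn2 is the RefSeq start nearest to that of GENCODE, 6 bases away.
Opa1, chr16:29579234-29579333, plus strand: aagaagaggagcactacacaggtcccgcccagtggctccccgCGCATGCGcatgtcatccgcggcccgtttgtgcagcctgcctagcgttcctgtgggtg
Mfn2, chr4:147904699-147904798, minus strand: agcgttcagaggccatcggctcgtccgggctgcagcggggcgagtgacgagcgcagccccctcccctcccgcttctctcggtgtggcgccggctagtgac
Of the cores searched, Opa1 held that of NRF1 and Mfn2 neither. The transcript of Nrf1 itself had an r of -0.39 with Opa1 and -0.29 with Mfn2, neither past the limit. What moved Opa1 and Mfn2 together was not tested.

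**Figure D3:**
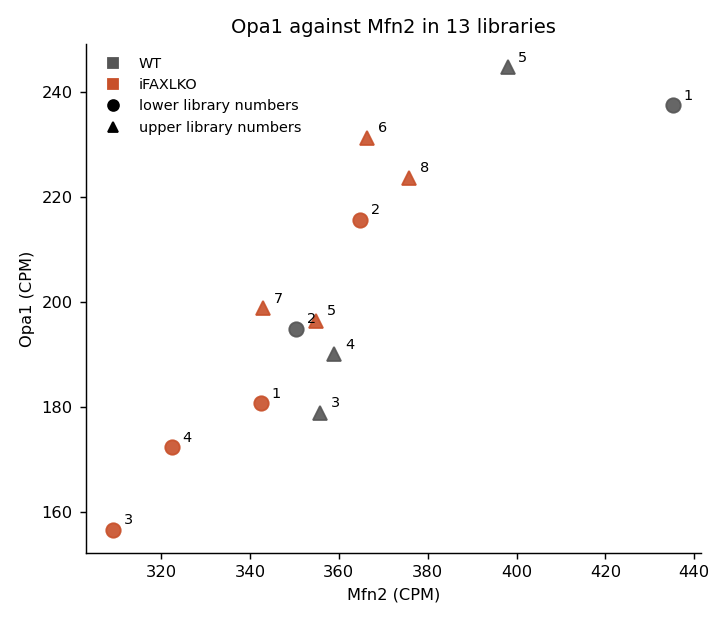
Opa1 against Mfn2 in CPM (linear axes that do not start at 0) in 13 libraries; grey points are WT, orange points iFAXLKO, numbers are replicates, circles are the lower and triangles the upper library numbers. The points rise along 1 band from iFAXLKO replicate 3 (309 and 157 CPM) to WT replicates 1 and 5, with r = 0.91 after the group means were removed.

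The other 8 relations had adjusted p-values of 0.957 each. The mitofusins Mfn1 and Mfn2 had an r of 0.03 (permutation p = 0.923), and Dnm1l had 0.10 with its receptor Mff (permutation p = 0.835) and -0.20 with Fis1 (permutation p = 0.66). Tfam with its regulators had an r of 0.02 for Nrf1 (permutation p = 0.957) and 0.10 for Gabpa (permutation p = 0.784), and its r with Polg was -0.18 (permutation p = 0.632). The share of mitochondrially encoded counts had an r of -0.21 with Tfam (permutation p = 0.445) and -0.29 with Polg (permutation p = 0.248). These p-values do not show that the genes are unrelated, since 13 libraries leave wide room for moderate relations.

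All 45 pairs were then listed, a choice made after the values were seen, and 24 coefficients were positive and 21 negative, with a median of 0.02. Opa1 with Mfn2 was the only pair past the limit (adjusted p = 0.00675 over 45 pairs, permutation). Fis1 with Tfam came next at r = 0.78 (permutation p = 0.00953, adjusted p = 0.214), and this fell to 0.54 without WT replicate 2. The pairs that followed in size were Dnm1l with Nrf1 at -0.66, Mfn1 with Mff at 0.64, Dnm1l with Mfn2 at 0.62, Mff with Polg at -0.61, Mff with Tfam at 0.60 and Mfn2 with Fis1 at -0.60. None of these 6 pairs passed the adjusted limit, at 0.316 each.

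**Figure D4:**
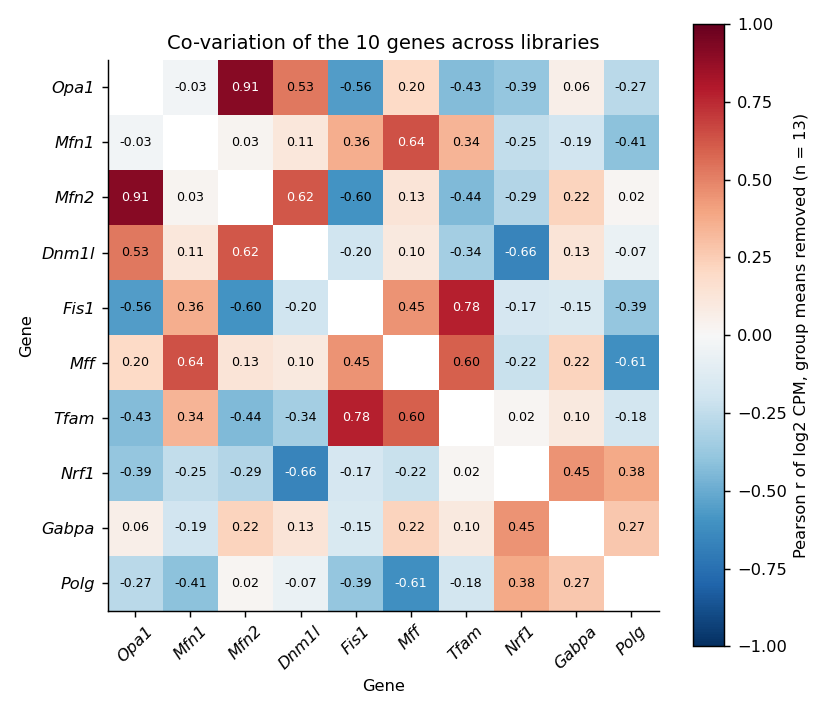
Pearson r between the 10 genes (both axes) over 13 libraries, from log2 CPM with the group means removed, on a colour scale from -1 (blue) to 1 (red). The cell of Opa1 and Mfn2 (0.91) is the only one past the adjusted limit, with Fis1 and Tfam (0.78) next.

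WT replicate 2, the library that was highest for Fis1, Mff, Mfn1 and Tfam and lowest for Polg, differed from the rest over all genes. The mean deviation from the group mean of genes with at least 6707 exon bases, minus that of genes with at most 2647, was -0.56 on the log2 scale in this library and between -0.09 and 0.23 in the other 12. Across libraries Fis1, the shortest member with 1714 exon bases, had an r of -0.93 with this contrast of long against short genes (permutation p = 0.00019, adjusted p = 0.0019 over 10 members), and -0.82 without WT replicate 2. Tfam had -0.75 (permutation p = 0.0153, adjusted p = 0.0764), which was -0.44 without that library. Among the other members, Mfn2 had 0.58, Polg 0.55, Mff -0.51 and Opa1 0.45, and only Fis1 passed the adjusted limit. The r of Opa1 with Mfn2 was 0.89 once this contrast was removed. Because the contrast was taken from the group mean, WT replicate 2 also raised the values of the other WT libraries. Those of iFAXLKO lay between -0.09 and 0.14. The contrast was added after the data were seen, and what made the libraries differ in it was not tested.

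No member was related to the skeletal muscle score at the adjusted limit, although the muscle transcripts spanned 94.2-fold. The closest was Mfn1, with a Pearson r of 0.58 (permutation p = 0.0537, adjusted p = 0.537 over 10 members) and a Spearman rho of 0.75 (permutation p = 0.00645, adjusted p = 0.0645). The r was 0.69 without WT replicate 5 and iFAXLKO replicate 8, the 2 libraries lowest in muscle markers. Opa1 and Mfn2 had an r of -0.23 and -0.09 with the score, which turned to 0.49 and 0.56 without those libraries. For Opa1 it was 0.54 in the lower and -0.69 in the upper library numbers, and for Mfn2 0.51 and -0.77, so the sign rested on which libraries were taken.

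The wider machinery was followed in 5 lists of related genes, and 0 of their 98 tested members passed the adjusted limit in edgeR, DESeq2 or limma-voom. Of 20 tested dynamics partners, 1 had an unadjusted p under 0.05 and 15 had a negative log2 fold change, with a median of -0.05, where 7.38% and 53.6% of all genes tested did so. Spire1, an actin nucleator at sites of fission, had the smallest p, at 27.7 ± 4.55 CPM (SD, n = 8) in iFAXLKO and 35.0 ± 8.17 CPM (SD, n = 5) in WT, with a log2 fold change of -0.34 (edgeR adjusted p = 0.617). Mtfr1l and Slc25a46, an outer membrane carrier protein, had -0.14 and -0.13. The Dnm1l receptors Mief1 and Mief2 had -0.09 and -0.04. Mtfr2 and Gdap1 were below the filter on low counts. Without WT replicate 2 the median of the dynamics partners was -0.06.

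Genes of inner membrane organisation process Opa1 or build the cristae junctions. Of their log2 fold changes 17 of 18 were negative, where 53.6% of all genes tested were. They had 0 at an unadjusted p under 0.05, where 7.38% of all genes did, and a median of -0.10. Immt, the core of the junction complex, had 658 ± 78.4 CPM (SD, n = 8) in iFAXLKO and 745 ± 87.6 CPM (SD, n = 5) in WT, a log2 fold change of -0.18 (edgeR adjusted p = 0.731). Oma1, the stress-activated protease that cleaves Opa1, had -0.17 (edgeR adjusted p = 0.689), and Apool -0.15. The median of this list was -0.01 when WT replicate 2 was left out, where Apool had -0.05. It was also -0.01 in limma-voom, whose fit weighted the libraries by sample quality.

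Among 26 genes of mitochondrial DNA maintenance and transcription, the partners of Tfam and Polg, 5 had an unadjusted p under 0.05, all 5 lower in iFAXLKO, and the median was -0.06, or -0.02 without WT replicate 2. Twnk, the helicase of the mitochondrial replisome, had 36.9 ± 2.65 CPM (SD, n = 8) in iFAXLKO and 43.2 ± 3.73 CPM (SD, n = 5) in WT, with 0 of 8 iFAXLKO libraries above the WT mean. The difference was -0.23 on the log2 scale (SE 0.07, edgeR adjusted p = 0.48). Lonp1, the matrix protease that degrades free Tfam, had -0.24 (edgeR adjusted p = 0.506), and the RNA polymerase Polrmt -0.17 (edgeR adjusted p = 0.625). Polg2, the accessory subunit of Polg, had -0.03. Across all genes 7.38% had an unadjusted p under 0.05, and none of the 26 passed the adjusted limit.

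Regulators of biogenesis had 12 of 19 log2 fold changes negative, where 53.6% of all genes tested were. They had 0 at an unadjusted p under 0.05, where 7.38% of all genes did, and a median of -0.03. Ppargc1a, the coactivator that drives Nrf1 and Gabpa targets, had 36.6 ± 6.42 CPM (SD, n = 8) in iFAXLKO and 38.4 ± 7.81 CPM (SD, n = 5) in WT, a log2 fold change of -0.07 (95% interval -0.37 to 0.22, edgeR adjusted p = 0.96). Its relative Ppargc1b had 0.04 and their partner Esrra -0.05. Ppara, a fatty acid receptor, had -0.42 with an interval of -1.09 to 0.24, and the corepressor Nrip1 0.28 with an interval of -0.07 to 0.64, and Ppard had -0.13. Without 1 library the value of Ppara ran from -0.63 (without WT replicate 2) to -0.24 (without WT replicate 1). That of Nrip1 ran from 0.14 (without WT replicate 2) to 0.36 (without WT replicate 1), and was 0.01 with the fibroblast covariate. The median of the regulators was -0.09 without WT replicate 2.

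Of 15 mitophagy genes, 14 had a negative log2 fold change and 4 an unadjusted p under 0.05, all 4 lower in iFAXLKO, with a median of -0.13, where 53.6% of all genes were negative and 7.38% had such a p. The median was -0.07 without WT replicate 2 and -0.08 without iFAXLKO replicate 7. Ambra1, a scaffold of autophagy initiation, had -0.18 (edgeR adjusted p = 0.551), the kinase Ulk1 -0.22 (edgeR adjusted p = 0.628) and the receptor Tax1bp1 -0.16 (edgeR adjusted p = 0.647). The fibroblast score as a covariate was a choice made after the data were seen. With it the median of the mitophagy list was -0.05, that of the dynamics partners 0.05 and that of the regulators 0.08. That of inner membrane organisation was then -0.08 and that of mitochondrial DNA maintenance and transcription -0.05.

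**Figure D5:**
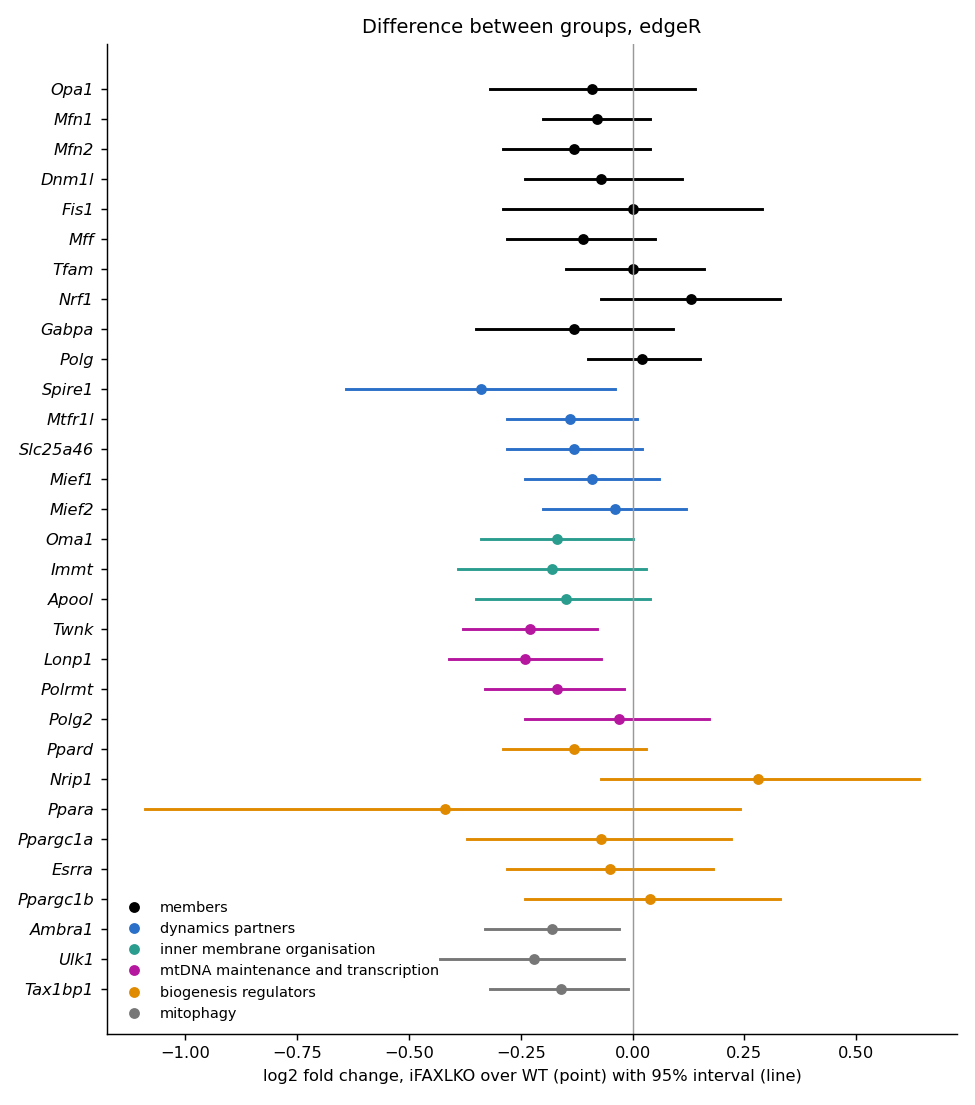
Log2 fold change of iFAXLKO over WT (points) with its 95% interval (lines) for the 10 genes in black and for the named genes of 5 related lists in colour, from the edgeR fit of 8 against 5 libraries. All 10 intervals of the members span 0; those of Spire1, Twnk, Lonp1, Polrmt, Ambra1, Ulk1 and Tax1bp1 do not, but none of these passed the adjusted limit.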

How the data were processed

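The deposited files hold raw read counts per Ensembl gene identifier, 1 whole number per gene and library. The methods of the study name Trim Galore, hisat2 and GRCm38, with depletion of ribosomal RNA, whereas the submitters' processing notes name bcl2fastq 2.20, fastp 0.20.0, STAR 2.7.4a, DESeq2 and GRCm38.p6, and the labels polyadenylated RNA. Counting tool and strand setting are not given in the sources used here. Groups came from the labels. Symbols, positions and exon lengths came from GENCODE M21, and promoters from RefSeq.

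The 13360 genes above 1 CPM in 5 or more libraries were scaled with TMM factors and tested with edgeR 4.0.16 in R 4.3.3 (quasi-likelihood F test, robust, two-sided, no covariates, Benjamini-Hochberg over all genes tested, limit 0.05). The standard error was the log2 fold change over the square root of F. CPM use TMM factors, and log2 CPM a prior count of 2. Exact permutation tests of 8 against 5 libraries can reach a p of 0.000777; relations were permuted 100000 times within groups. The lowest chi-square between 2 libraries of a group was 15.3 per degree of freedom, so none differed by counting error alone. Each was therefore counted as 1 replicate, although this value cannot show whether 2 libraries came from the same animal. Fits were tested on simulated data, and near copies were sought with BLAST+ 2.17.0. The named genes were the members, Axl, 9 direct partners and, per related list, genes past the limit and the 3 with the smallest p. Members, lists and tests were chosen with earlier results of these data known. Alternatives were DESeq2 1.42.0, limma 3.58.1 (voom with sample quality weights), other scalings, filters, dispersions and covariates. The replicate block and 1 library left out at a time were further alternatives.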

Additional observations from a re-analysis of the deposited data

Results flagged for a closer look

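A set of values was 1 gene, or the share of mitochondrially encoded counts, in 1 group of 5 or 8 libraries. Among 66 such sets, 7 held a library whose gap to its nearest neighbour was large against the range of its group. The measure was Dixon's 95% limit, where chance gives about 1 in 20. Fis1 was at 93.1 CPM in WT replicate 2, and the next WT library was at 60.3 CPM. In the same library Mtfr1l was at 115 CPM with the nearest at 95.5 CPM, and Apool at 79.2 CPM with the nearest at 59.9 CPM. Gabpa was at 53.4 CPM in iFAXLKO replicate 7 with the nearest at 77.8 CPM, and Lonp1 was at 231 CPM there with the nearest at 281 CPM. Twnk was at 42.7 CPM in iFAXLKO replicate 6, above the nearest at 37.4 CPM, and Ppard at 56.7 CPM in iFAXLKO replicate 5, above the nearest at 48.5 CPM.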

How the results depend on the processing

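Under 26 alternatives, 13 of which left out 1 library, 0 of the 10 members and 0 genes of the 5 lists passed the adjusted limit. Of 260 log2 fold changes of members, 236 kept their sign and 24 changed it, 12 of them in Fis1 and 7 in Tfam, where the main values were 0.0031 and 0.0048. The fibroblast covariate, the removal of both muscle-poor libraries and the removal of the length contrast were added after seeing the data. The count of genes called over the whole table, 17, was 67 in DESeq2, 8 with the fibroblast score as a covariate, 11 without both libraries lowest in muscle markers and 14 to 19 without 1 library. The labels do not say that equal replicate numbers pair the samples. For samples of the same number the correlation of deviations ran from -0.614 to 0.422, and 2 of 5 numbers correlated best with themselves. These few values cannot decide whether the samples are paired. The replicate block gave 7 called genes and turned Mief2 to 0.01 and Esrra to 0.0024.

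With the fibroblast covariate the log2 fold change was 0.02 for Opa1, -0.10 for Fis1, 0.05 for Mff, 0.08 for Gabpa, 0.31 for Ppargc1a, 0.07 for Esrra, -0.23 for Axl, 0.07 for Slc25a46 and 0.05 for Ppara. Without both muscle-poor libraries it was -0.03 for Fis1 and -0.05 for Tfam. For Fis1 it was also -0.01 with the library number as a covariate, -0.0033 with filterByExpr and -7.4e-05 with no filter, and for Tfam -0.00081 with filterByExpr. In limma-voom it was -0.0042 for Polg, -0.01 for Ppargc1b, 0.06 for Esrra and 0.03 for Mief2. Without 1 library it ran from -0.06 to 0.19 for Fis1, -0.03 to 0.07 for Tfam, -0.01 to 0.06 for Polg, -0.08 to 0.16 for Ppargc1b, -0.10 to 0.05 for Esrra, -0.10 to 0.01 for Polg2 and -0.08 to 0.03 for Mief2. The cause was not tested.

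With the length contrast removed, r was 0.37 for Dnm1l with Fis1, 0.41 for Tfam with Polg and 0.01 for Tfam with the mitochondrial share. Without 1 library, r ran from -0.24 to 0.20 for Mfn1 with Mfn2, -0.16 to 0.36 for Nrf1 with Tfam, -0.54 to 0.51 for Gabpa with Tfam and -0.31 to 0.59 for Tfam with Polg. With the muscle score it ran from -0.30 to 0.19 for Mfn2, -0.13 to 0.34 for Dnm1l, -0.12 to 0.31 for Mff, -0.26 to 0.34 for Tfam, -0.25 to 0.14 for Nrf1 and -0.27 to 0.03 for Polg. None of these passed its limit.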
